A study of Homo sapiens with 6 samples.

Results

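The FOXO group described here comprises 3 forkhead transcription factors of the FOXO family, FOXO1, FOXO3 and FOXO4, and 3 genes that FOXO factors are known to induce, IRS2, PIK3IP1 and BCL6. They are 6 of the 57150 genes in the deposited table, taken by gene symbol, and each symbol had 1 row. The genes were chosen by their FPKM levels, already known to be higher after knockdown of ZCCHC24, so the difference between the groups is a description for them and carries no test. RNA-seq libraries of the established human line MDA-MB-435 fell into 3 controls (genotype label ZCCHC24 CTRL) and 3 knockdowns (ZCCHC24 KD), and 1 ug of total RNA went into each stranded, poly(A)-selecting library. The sources used here do not give the knockdown method, what the controls received or whether each library is its own culture. The p-values below therefore cover only the spread between these libraries, which may be technical.

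FOXO proteins carry the forkhead DNA-binding domain and sit at the end of the insulin and growth factor pathway. Activated receptors signal through IRS adaptors to PI3K and AKT, and AKT phosphorylates FOXO proteins, which are then bound by 14-3-3 proteins and held in the cytoplasm. When the pathway is quiet, FOXO proteins enter the nucleus and switch on genes of cell cycle arrest, autophagy and stress resistance, together with genes that feed back on the pathway itself. RNA levels show neither the phosphorylation nor the location of the proteins, which were not measured here.

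Known FOXO binding elements contain the letters GTAAACA or ATAAACA, and insulin response elements contain CAAAACA. These 3 motifs were searched on both strands in RefSeq promoter windows (GRCh38.p14), which run from 250 bases before to 50 bases after an annotated start. The 6 genes all matched, with 11 windows, of which 4 held a match, 1 each in FOXO3, FOXO4, IRS2 and PIK3IP1. The 3 windows below are shown because FOXO4 and PIK3IP1 hold the GTAAACA element and IRS2 the insulin response letters. Capitals mark the match, and all are written 5′ to 3′ on the strand of the gene.
FOXO4: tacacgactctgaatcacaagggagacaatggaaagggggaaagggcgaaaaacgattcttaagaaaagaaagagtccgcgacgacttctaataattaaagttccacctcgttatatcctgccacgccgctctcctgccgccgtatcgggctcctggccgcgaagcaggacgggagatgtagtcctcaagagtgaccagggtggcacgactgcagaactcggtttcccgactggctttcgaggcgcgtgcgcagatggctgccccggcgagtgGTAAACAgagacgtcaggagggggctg
PIK3IP1: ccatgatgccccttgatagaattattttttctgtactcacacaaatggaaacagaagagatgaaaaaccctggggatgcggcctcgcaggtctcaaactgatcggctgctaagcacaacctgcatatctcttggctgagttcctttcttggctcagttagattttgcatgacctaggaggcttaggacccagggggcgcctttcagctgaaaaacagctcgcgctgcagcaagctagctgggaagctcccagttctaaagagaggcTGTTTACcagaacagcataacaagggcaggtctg
IRS2: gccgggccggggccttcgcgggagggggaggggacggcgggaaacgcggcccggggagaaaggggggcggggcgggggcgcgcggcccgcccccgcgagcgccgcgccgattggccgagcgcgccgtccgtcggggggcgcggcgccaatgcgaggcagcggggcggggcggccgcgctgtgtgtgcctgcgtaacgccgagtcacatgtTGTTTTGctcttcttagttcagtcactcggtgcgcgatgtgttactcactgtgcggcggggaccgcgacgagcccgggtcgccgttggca

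The FOXO4 window (chrX:71095601-71095900, plus strand) holds GTAAACA beginning at base 24 after the start. The PIK3IP1 window (chr22:31292439-31292738, minus strand) holds the reverse complement TGTTTAC from base 17 after the start, and the second PIK3IP1 window, whose start lies farther upstream, holds no match. The IRS2 window (chr13:109786534-109786833, minus strand) holds TGTTTTG, the reverse complement of CAAAACA, 40 bases before the start. In 1 of the 4 FOXO3 windows ATAAACA lies 234 bases before the start. No match was found in the window of FOXO1 or in the 2 windows of BCL6. Among all 35116 promoter windows of this length, 3.42% hold GTAAACA, 4.24% ATAAACA and 4.92% CAAAACA on either strand. Counted by gene, over 27305 genes, the shares are 4.19%, 5.16% and 6.05%. The share holding any of these motifs was not counted, so the pooled count of windows or genes with a match has no background here. No window of the 6 genes held more than 1 match, so no matches overlapped, and a match describes letters in the window, not binding.

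ZCCHC24 was reduced in every library labelled as knockdown. Its level was 12.7, 12.3 and 13.2 FPKM in controls 1 to 3 and 1.54, 1.69 and 1.81 FPKM in knockdowns 1 to 3, which left 13.2% of the control mean. FPKM is the number of sequenced fragments per kilobase of transcript, scaled for the size of the library, so levels of different genes can be compared. The log2 change was -2.36 ± 0.075 (SE) with a limma adjusted p of 1.5e-07, and the exact two-sided permutation p was 0.1, the lowest value possible with 3 libraries a group. Relative depth, read from the steps between the lowest values, differed by at most 1.26 times between libraries, and absolute depth is unknown. The labels give breast as the tissue. The 8 melanocyte markers MITF, PMEL, TYR, MLANA, DCT, SOX10, TYRP1 and S100B all lay above 19 FPKM in every library. At a limma adjusted p below 0.05, 7 of these markers fell, where 35.4% of the 13343 tested genes fell, and TYR did not pass. Of 10 breast epithelial markers, ESR1, GATA3 and KRT14 lay below 1 FPKM, KRT5 was listed at 0, and KRT19, EPCAM, CDH1 and KRT7 lay between 1.01 and 5.35 FPKM without passing. KRT8 and KRT18, which the table places at the same locus, had 23.6 to 93.2 FPKM and rose, by 0.69 and 0.36 on the log2 scale (limma adjusted p below 0.05). The summed level of the 10 breast markers was 100.0 to 120.0 FPKM in the controls and 142 to 152 FPKM after knockdown, that of the 8 melanocyte markers 2152 to 2253 and 1486 to 1551 FPKM, and their part in the levels of the FOXO group was not tested. As bulk RNA, the values cannot tell fewer cells expressing a gene from less RNA per cell.

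FOXO4 differed most between the groups within the FOXO family. FOXO4 (ENSG00000184481; hg19 chromosome X, 70316046 to 70323385) had 5.84, 4.87 and 4.40 FPKM in controls 1 to 3 and 31.2, 30.9 and 30.3 FPKM in knockdowns 1 to 3. Every knockdown library lay far above every control library, and the knockdown libraries lay close together, with a coefficient of variation of 1.6% against 14.6% in the controls. The means were 5.04 ± 0.736 and 30.8 ± 0.492 FPKM (SD, n = 3), a ratio of 6.11. On the log2(FPKM + 1) scale, on which all log2 changes here are given as knockdown minus control, the difference was 2.40, and only 16 of the 13343 genes tested across the table had a larger rise. The listed locus of FOXO4 overlapped no other row of the table.

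FOXO3, the family member best known for control of cell survival genes, was also higher after knockdown (ENSG00000118689; hg19 chromosome 6, 108881037 to 109005977). It had 7.34, 6.90 and 7.35 FPKM in controls 1 to 3 and 13.4, 12.8 and 11.8 FPKM in knockdowns 1 to 3. The groups did not overlap, and the gap between them was wider than the range within either group. The means were 7.2 ± 0.258 and 12.7 ± 0.768 FPKM (SD, n = 3), a ratio of 1.76 and a log2 difference of 0.74.

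FOXO1, a regulator of metabolic genes, showed the smallest difference of the 3 factors (ENSG00000150907; hg19 chromosome 13, 41129803 to 41240734). It had 5.43, 6.12 and 5.46 FPKM in controls 1 to 3 and 8.67, 8.98 and 8.18 FPKM in knockdowns 1 to 3. The lowest knockdown library still lay above the highest control. The means were 5.67 ± 0.390 and 8.61 ± 0.403 FPKM (SD, n = 3), a ratio of 1.52 and a log2 difference of 0.53.

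**Figure D1:**
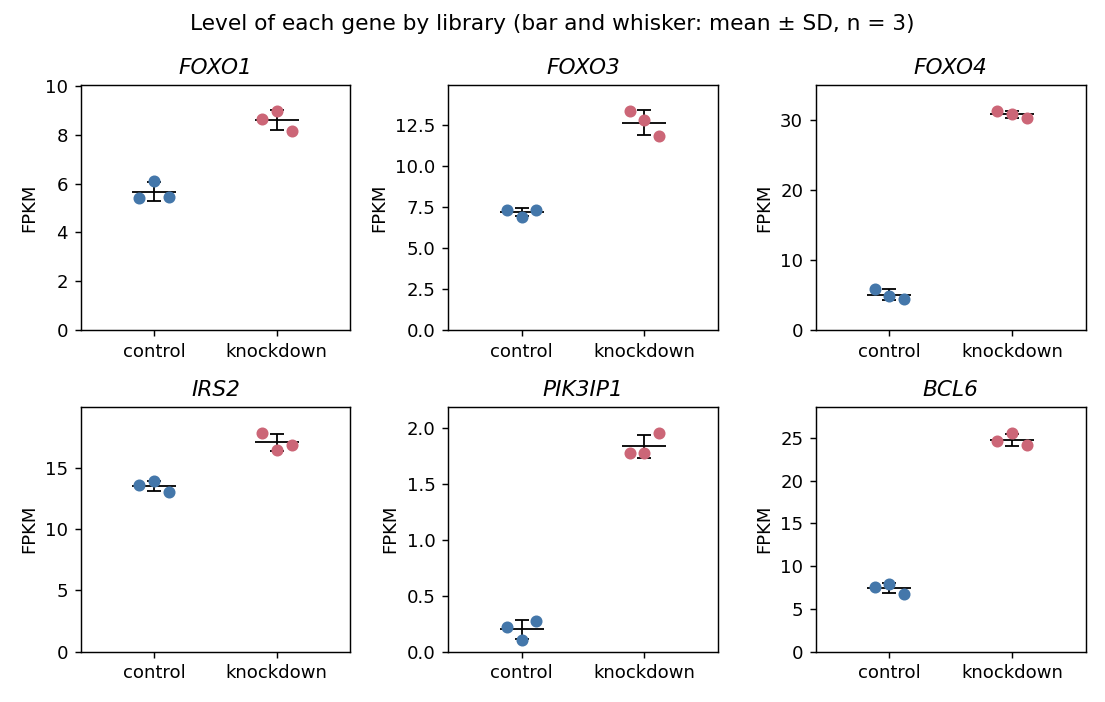
FPKM (vertical axes, each starting at 0) of FOXO1, FOXO3, FOXO4, IRS2, PIK3IP1 and BCL6 in the 3 control and 3 knockdown libraries, 1 point per library, with mean and SD. In each panel the knockdown points lie above the control points, from a ratio of means of 1.26 for IRS2 to 9.14 for PIK3IP1.

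The make-up of the family differed between the groups. The summed level of FOXO1, FOXO3 and FOXO4 was 18.6, 17.9 and 17.2 FPKM in controls 1 to 3 and 53.3, 52.7 and 50.3 FPKM in knockdowns 1 to 3, so the mean sum was 2.91 times as high after knockdown. FOXO3 held the highest share of the sum in each control library, 40.2% ± 2.19 on average, followed by FOXO1 at 31.7% ± 2.51 and FOXO4 at 28.1% ± 3.0 (SD, n = 3). FOXO4 held 58.6%, 58.7% and 60.2% in knockdowns 1 to 3, against 31.4%, 27.2% and 25.6% in the controls. The share of FOXO3 was 24.3% ± 0.766 and that of FOXO1 16.5% ± 0.444 after knockdown, although the level of both was higher there. FOXO4 alone made up 75.4% of the FPKM by which the sum differed.

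**Figure D2:**
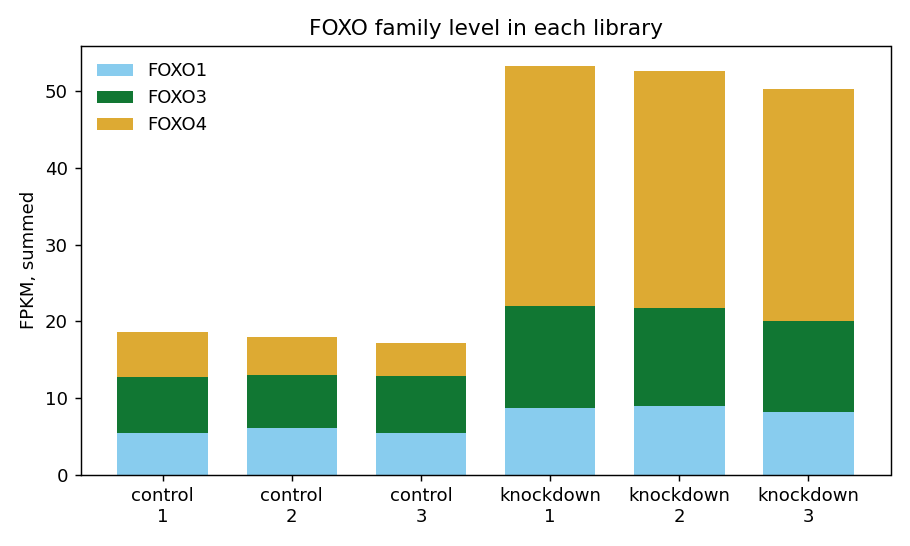
Stacked FPKM of FOXO1, FOXO3 and FOXO4 in each of the 6 libraries, with the height of a bar giving the summed level. The 3 control bars reach 17.2 to 18.6 FPKM and the 3 knockdown bars 50.3 to 53.3 FPKM, most of the added height being FOXO4.

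The fourth FOXO gene of humans and the near copies of the family did not show such levels. FOXO6, a member known mainly from brain, had at most 0.125 FPKM in any library. FOXO3B, a near copy of FOXO3 on chromosome 17, had 2.40, 2.13 and 2.33 FPKM in controls 1 to 3 and 2.38, 2.38 and 2.79 FPKM in knockdowns 1 to 3, and its groups overlapped. FOXO1B, a pseudogene of FOXO1, was listed at 0 in all 6 libraries. In GENCODE v29 transcripts, 838 of 7620 runs of 100 bases in FOXO3 (11%) also occur in FOXO3B, and they make up 45.8% of the runs in FOXO3B. The sources used here do not state how shared fragments were assigned, so the FOXO3 and FOXO3B levels carry that uncertainty. No run of 100 bases was shared between FOXO1, FOXO3 and FOXO4.

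BCL6, a zinc finger repressor of transcription that FOXO factors induce in lymphoid and other cells, had the highest level of the 3 induced genes after knockdown (ENSG00000113916; hg19 chromosome 3, 187416046 to 187463515). It had 7.53, 7.94 and 6.78 FPKM in controls 1 to 3 and 24.6, 25.6 and 24.2 FPKM in knockdowns 1 to 3. All knockdown libraries lay above all controls. The means were 7.42 ± 0.584 and 24.8 ± 0.717 FPKM (SD, n = 3), a ratio of 3.34 and a log2 difference of 1.62, with 0.817% of tested genes showing a larger rise.

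PIK3IP1, a membrane protein that binds the catalytic subunit of PI3K and lowers its activity, was weakly expressed (ENSG00000100100; hg19 chromosome 22, 31677578 to 31742218). It had 0.223, 0.108 and 0.272 FPKM in controls 1 to 3 and 1.78, 1.78 and 1.96 FPKM in knockdowns 1 to 3. The controls varied by 41.9% of their mean, against 5.55% in the knockdown libraries, and the groups did not overlap. The ratio of means, 0.201 ± 0.0843 to 1.84 ± 0.102 FPKM (SD, n = 3), was 9.14, the highest of the 6 genes. Its log2 difference was 1.24 with the added 1 FPKM, below those of FOXO4 and BCL6, and 2.73 with 0.1 FPKM added, above the 2.60 of FOXO4 and the 1.73 of BCL6. Its mean over the 6 libraries was 1.02 FPKM, just above the minimum of 1 FPKM for the fit, and it passed through the knockdown libraries only. The table lists the same 64.6 kb locus for PIK3IP1 and for PATZ1, a zinc finger gene, and the PATZ1 level went the other way, from 9.75 ± 0.551 to 5.41 ± 0.242 FPKM.

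IRS2, an adaptor that carries the signal from insulin and IGF1 receptors to PI3K, differed least (ENSG00000185950; hg19 chromosome 13, 110406183 to 110438915). It had 13.6, 13.9 and 13.0 FPKM in controls 1 to 3 and 17.8, 16.5 and 16.9 FPKM in knockdowns 1 to 3. The lowest knockdown library lay above the highest control. The means were 13.5 ± 0.432 and 17.1 ± 0.704 FPKM (SD, n = 3), a ratio of 1.26 and a log2 difference of 0.31, and 30.2% of tested genes had a larger rise. The row AL162497.1 has the same listed locus, with 5.52, 12.3 and 6.14 FPKM in controls 1 to 3 and 13.2, 14.6 and 16.2 FPKM in knockdowns 1 to 3.

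The order of the levels differed between the groups. In the controls IRS2 was highest, followed by BCL6 and FOXO3, whose ranges over libraries overlapped, then by FOXO1 and FOXO4, whose ranges also overlapped, and by PIK3IP1. After knockdown the order was FOXO4, BCL6, IRS2, FOXO3, FOXO1 and PIK3IP1, and the ranges of all neighbours were separate. All 6 genes had groups that did not overlap with the knockdown higher, where 38.7% of the tested genes did so; since the genes were chosen for this contrast, nothing is read from that count.

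Genes with the most similar profiles were sought by the root mean square distance between log2(FPKM + 1) values centred on each gene's own mean, over the 6 libraries. Nearest to FOXO4 were SESN2, a stress-induced brake on mTORC1, at a distance of 0.099, and MIR22HG, a microRNA host gene, at 0.11. Both went with FOXO4 from low control to high knockdown levels, SESN2 from 1.88 ± 0.0624 to 14.4 ± 0.374 FPKM and MIR22HG from 8.07 ± 0.0629 to 46.6 ± 2.30 FPKM (SD, n = 3). Nearest to BCL6 were RP11-355O1.11 and the mRNA export factor NXF1, both at 0.031, with NXF1 at 27.0 ± 2.03 FPKM in controls and 84.8 ± 0.248 FPKM after knockdown. FOXO3 lay nearest to COG7, of the Golgi tethering complex, and to the F-box gene FBXW9, both at 0.022. FOXO1 lay nearest to RP1-178F10.3 at 0.016 and RP11-381O7.3 at 0.024. PIK3IP1 lay near RP11-73M18.7, at 0.036. IRS2 lay nearest to NOP14, a ribosome assembly factor, and MYH9, a nonmuscle myosin, both at 0.022. Among the 6 genes themselves the smallest distance was 0.12, between FOXO1 and IRS2, and the largest 1.0, between FOXO4 and IRS2. With 2 groups of 3 libraries such distances are set mainly by the size of the difference between groups.

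**Figure D3:**
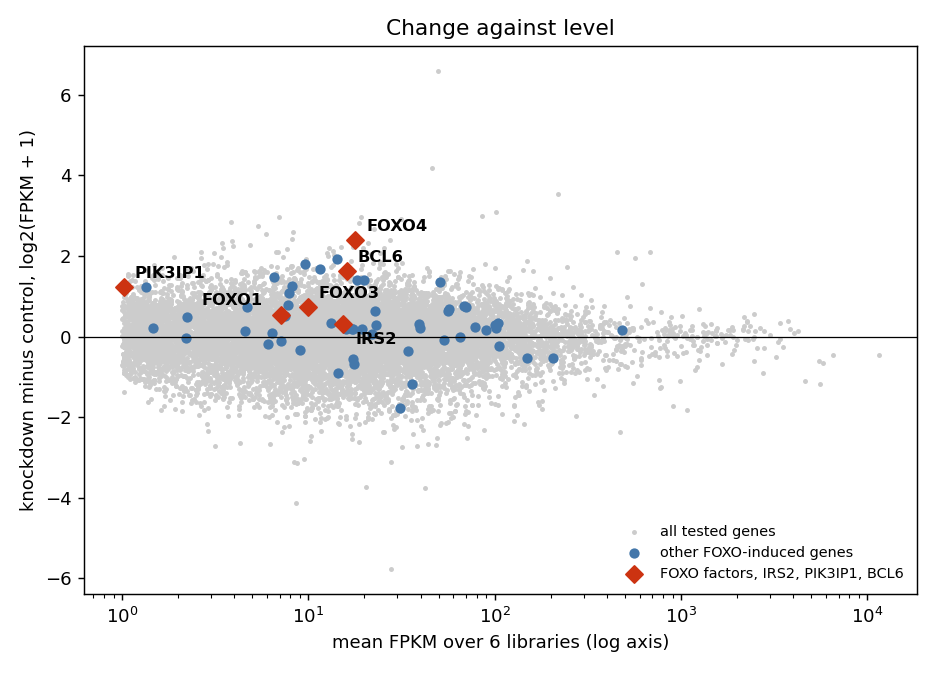
Mean FPKM over the 6 libraries (horizontal, log axis) against knockdown minus control on log2(FPKM + 1) for the 13343 tested genes (grey), the 53 tested genes of the list of other FOXO-induced genes (blue) and the 6 named genes (red). FOXO4 at 2.40 and BCL6 at 1.62 lie near the upper edge of the cloud, IRS2 at 0.31 inside it.

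Most other genes known to be induced by FOXO factors were higher after knockdown, in a list chosen with earlier results of these data known. Of 64 such genes, 53 reached a mean of 1 FPKM and were tested; 33 rose and 10 fell at a limma adjusted p below 0.05, the other 10 did not pass, and the median log2 change was 0.22. Over all tested genes 72.4% passed, 37.0% as rises and 35.4% as falls, and the median change was 0.01. In the list, 62.3% rose and 18.9% fell; 1 of the rises, C10orf10, reached the minimum level only after knockdown, and without it 32 of 52 rose and 10 fell. On log2(FPKM + 1), the 5 largest changes with separate groups were 4 rises and 1 fall. YPEL3, a small growth-suppressive protein, rose 4.27-fold from 5.37 ± 1.10 to 23.0 ± 1.38 FPKM (log2 change 1.92 ± 0.12, limma adjusted p 2.3e-06). CDKN2B (p15), an inhibitor of CDK4 and CDK6, rose 4.07-fold to 15.4 ± 1.67 FPKM, RICTOR, the defining subunit of mTORC2, rose 3.62-fold to 18.0 ± 1.69 FPKM, and GADD45B, a growth arrest gene of stressed cells, rose 3.40-fold to 10.1 ± 0.804 FPKM. TXNIP, which binds thioredoxin and limits glucose uptake, fell 3.57-fold from 48.5 ± 1.75 to 13.6 ± 0.537 FPKM. MXI1, an antagonist of MYC, had 65.5 ± 4.30 and 64.8 ± 2.33 FPKM, and BNIP3, a mitophagy receptor, had 55.1 ± 1.89 and 52.1 ± 1.37 FPKM; neither passed.

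By role, a split of the list made after its values were seen, most genes of arrest and of autophagy rose. Over all tested genes 37.0% rose and 35.4% fell, and the median size of a log2 change in either direction was 0.41. Of 11 cell cycle brakes, 10 rose and 0 fell by limma, with MXI1 not passing. The median log2 change of the brakes was 0.33, and several of the rises were small. CDKN1B (p27) rose 2.82-fold to 26.9 ± 0.650 FPKM, and CDKN1A (p21) rose 1.85-fold from 5.43 ± 0.0481 FPKM. Of 7 genes of autophagy and mitophagy that reached 1 FPKM in both groups, 6 rose and BNIP3 did not pass; the median log2 change was 0.73. GABARAPL1, an autophagosome protein of the ATG8 family, rose 2.61-fold from 28.1 ± 0.333 to 73.3 ± 1.68 FPKM. ULK1, the kinase that starts autophagy, rose 2.38-fold to 11 ± 0.597 FPKM, and MAP1LC3B (LC3B) rose 1.70-fold to 86.3 ± 1.20 FPKM. C10orf10, also known as DEPP1, had 0.410 ± 0.0434 FPKM in controls and 2.29 ± 0.266 FPKM after knockdown. It reached the minimum level through the knockdown libraries only, so its direction was fixed by the filter, and it is left out of the counts for autophagy. BBC3 (PUMA) was the rise among the 3 tested genes of cell death, 2.69-fold to 11.8 ± 0.585 FPKM.

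The remaining roles were divided. With 37.0% rises and 35.4% falls over all tested genes, counts over so few genes say little. Of the ubiquitin ligases, FBXO32 (atrogin-1) rose 1.62-fold to 70.4 ± 0.244 FPKM and CBLB rose 2.82-fold to 29.4 ± 1.38 FPKM, whereas TRIM63 (MuRF1) fell to 7.87 ± 0.178 from 10.1 ± 0.346 FPKM. Of 4 tested antioxidant enzymes 2 rose and 2 fell, the falls being catalase (CAT), 1.51-fold to 13.8 ± 1.25 FPKM, and PRDX3, a mitochondrial peroxiredoxin, 1.46-fold to 121 ± 6.15 FPKM. Among 10 tested genes of receptors and growth signalling 5 rose and 2 fell. INSR and IGF1R, the insulin and IGF1 receptors, did not pass, with 4.36 ± 0.829 and 4.83 ± 0.514 FPKM for INSR and 21.4 ± 1.39 and 22.5 ± 0.876 FPKM for IGF1R in controls and knockdowns, and the EGFR relative ERBB3 fell 2.30-fold to 21.7 ± 0.921 FPKM. PPARGC1A, a coactivator of mitochondrial genes, fell 1.95-fold to 9.76 ± 1.44 FPKM, and the other 4 genes of glucose metabolism, PDK4, G6PC, PCK1 and IGFBP1, were below the minimum level.

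The 4 tested genes known to be lowered by FOXO factors all passed, 3 as falls and 1 as a rise. Over all tested genes 72.4% passed and 35.4% fell, so a count over 4 genes says little. FOXM1, a forkhead factor that drives mitotic genes and competes with FOXO3, fell 3.07-fold from 60.1 ± 0.784 to 19.5 ± 2.08 FPKM, and SREBF1, a regulator of lipid synthesis, fell 2.35-fold to 13.8 ± 0.599 FPKM. CCND1 (cyclin D1) fell 1.16-fold to 38.8 ± 0.997 FPKM, while ID1, an inhibitor of differentiation, rose 2.28-fold to 8.90 ± 0.0581 FPKM. Genes of dividing cells went with these changes. All 10 of a marker list (MKI67, TOP2A, PCNA, MCM2, MCM6, CCNA2, CCNB1, CDK1, BUB1 and RRM2) fell, against 35.4% of all tested genes. The median log2 change of these markers was -1.59, with no overlap between groups. Their summed level was 995 to 1051 FPKM in the controls and 296 to 330 FPKM after knockdown. MKI67 went from 69.8 to 81.9 FPKM in the controls to at most 32.4 FPKM after knockdown. Their part in the levels of the FOXO group was not tested.

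In a list of insulin and PI3K to AKT pathway genes, some of which act beside or downstream of AKT, more genes rose than fell. Of 48 genes 43 were tested; 22 rose (51.2%), 11 fell (25.6%) and 10 failed the threshold, against 37.0% and 35.4% over all tested genes, and the median log2 change was 0.18. AKT1 and AKT2, kinases that phosphorylate FOXO proteins, went in different directions. AKT1 fell 1.85-fold from 101 ± 4.32 to 54.6 ± 2.78 FPKM (log2 change -0.87 ± 0.051, limma adjusted p 2.0e-06), and AKT2 rose from 71.4 ± 3.81 to 79.9 ± 0.933 FPKM with a limma adjusted p of 0.013. Of 10 tested phosphatases 7 rose and 1 fell. PPP2CA, a catalytic subunit of the phosphatase PP2A, rose 2.02-fold to 155 ± 8.32 FPKM. GAB2, a docking protein, fell 1.90-fold to 14.9 ± 1.25 FPKM. IRS1, the closest relative of IRS2, had 9.05 ± 0.490 and 9.29 ± 0.927 FPKM and did not pass, and neither did PIK3CB, a catalytic subunit of PI3K, with a control level of 52.0 ± 0.803 FPKM and a log2 change of -0.06 ± 0.037, nor the phosphatase PTPN1, with 61.2 ± 1.53 and 65.9 ± 2.57 FPKM, which passed with medians of the libraries equalised (limma adjusted p 0.022).

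Among enzymes and partners that modify, hold or degrade FOXO proteins, 15 of 45 tested genes rose (33.3%), 18 fell (40.0%) and 12 failed the threshold, and the median log2 change was -0.10. Over all tested genes 37.0% rose and 35.4% fell, so these shares lie near the background. SKP2, which targets FOXO1 for degradation, fell 3.75-fold from 21.5 ± 0.970 to 5.74 ± 0.279 FPKM. CDK2 and CDK1, which phosphorylate FOXO1, fell 3.30-fold to 37.9 ± 2.52 FPKM and 4.63-fold to 24.2 ± 2.23 FPKM. CDK1 also belongs to the list of dividing-cell markers given above, all of which fell. The listed locus of CDK2 is also that of the melanocyte marker PMEL, which fell too. CREBBP, an acetyltransferase and coactivator, rose 2.0-fold to 29.3 ± 2.35 FPKM, and PRKAA1, a catalytic subunit of AMPK, rose 1.77-fold to 66.3 ± 4.51 FPKM. Of 6 tested 14-3-3 genes 3 rose and 3 fell. The exportin XPO1 had 93.4 ± 6.01 and 98.7 ± 4.23 FPKM and the ubiquitin ligase STUB1 had 72.2 ± 5.09 and 66.1 ± 2.47 FPKM, and neither passed, although STUB1 did without control 2 (limma adjusted p 0.016).

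Outside the FOXO family, forkhead genes were mostly lower. Of 37 such genes 13 were tested; 9 fell (69.2%), 1 rose and 3 failed the threshold, against 35.4% falls and 37.0% rises over all tested genes, and the median log2 change was -0.54. FOXN3, a repressor of cell cycle genes, was the rise, 2.70-fold from 8.13 ± 1.11 to 22 ± 0.241 FPKM. FOXN2 fell 2.69-fold to 13.7 ± 0.722 FPKM, FOXF2 fell 1.90-fold to 3.0 ± 0.152 FPKM and FOXR2 fell 1.84-fold to 4.30 ± 0.479 FPKM. FOXM1, given above, belongs to this list too. FOXJ3 had 16.2 ± 0.449 and 15.0 ± 0.346 FPKM and FOXC1 had 2.96 ± 0.0271 and 3.25 ± 0.140 FPKM, and neither passed.

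BCL6 acts through corepressors, which were examined with its known targets. Of 23 tested genes 9 rose (39.1%), 8 fell (34.8%) and 6 failed the threshold, and the median log2 change was 0.02. These shares lie near the 37.0% and 35.4% over all tested genes. NCOR1, a corepressor that binds BCL6, rose 2.18-fold to 49.3 ± 2.38 FPKM, and BCORL1, a relative of the corepressor BCOR, rose 2.08-fold to 5.17 ± 0.339 FPKM. The deacetylases went both ways, HDAC5 rising 2.45-fold to 11.4 ± 0.601 FPKM and HDAC4 falling 1.85-fold to 13.1 ± 1.26 FPKM. CHEK1, a checkpoint kinase that BCL6 represses in germinal centre B cells, fell 1.73-fold to 32.3 ± 1.4 FPKM. TBL1XR1, of the NCOR complex, had 57.9 ± 5.95 and 61.6 ± 0.870 FPKM and the deubiquitinase USP7 had 42.8 ± 1.26 and 43.4 ± 1.02 FPKM, and neither passed.

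**Figure D4:**
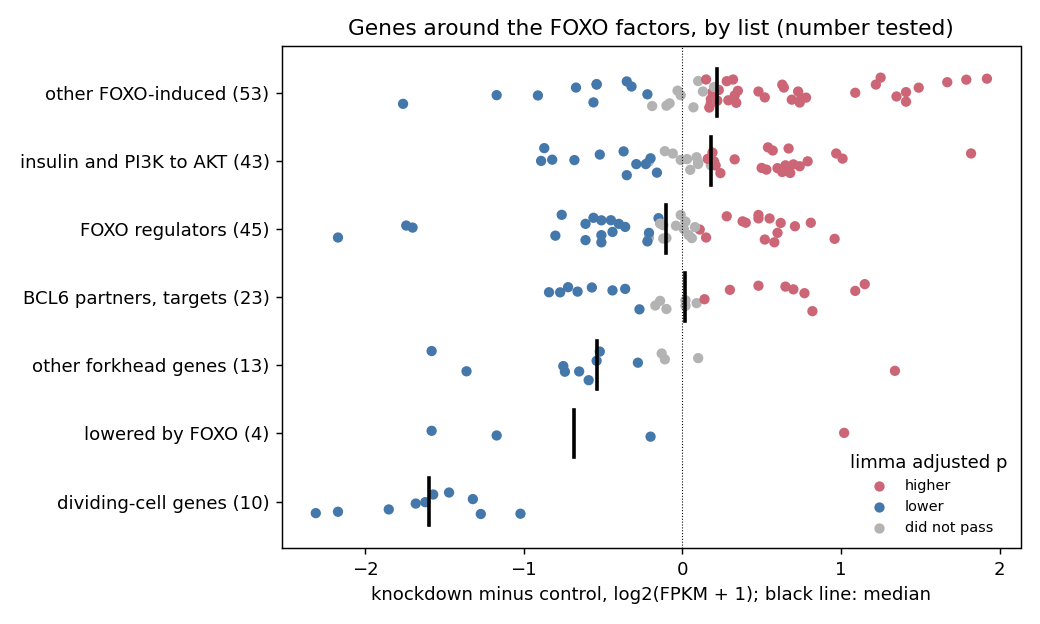
Knockdown minus control on log2(FPKM + 1) (horizontal) for the tested genes of 7 lists, 1 point per gene, coloured by whether the gene was higher or lower at a limma adjusted p below 0.05 or did not pass; black lines are list medians. The median lies at 0.22 for other FOXO-induced genes, at -0.54 for other forkhead genes and at -1.59 for genes of dividing cells.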

How the data were processed

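The deposited table holds 1 FPKM value per gene and library, per the file headers. The submitters' processing notes name TopHat 1.4.1, Cuffdiff 2.2.0 and hg19, with no role given; annotation, filters, strand setting and scaling across libraries are not stated in the sources used here. Since FPKM is a relative measure, a change in abundant genes can shift the rest.

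All 6 columns were matched to samples by name, and 1 blank row was left out. The 13343 genes averaging 1 FPKM or more were fitted as log2(FPKM + 1) with limma 3.58.1 (R 4.3.3; moderated test with trend, two-sided, Benjamini-Hochberg adjustment over all tested genes, threshold 0.05). A pseudocount of 1 understates changes of weak genes; folds are ratios of mean FPKM. Simulated libraries were drawn from the control means, with each gene's variance shrunk halfway to the median. In them 50 genes were changed at each size, all with a control mean of at least 2 on log2(FPKM + 1). The fit found 100% of genes changed by 1 or 2 (log2), 96% of those changed by 0.5 and 12% of those changed by 0.25. Of its 161 calls 7 were false. In the data 72.4% of genes passed, far more than were changed in the simulation. The adjusted threshold therefore differs, and these shares do not describe the fit to the data.

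The 6 genes and the lists were chosen with earlier results of these data known. In each of 6 lists the 5 called genes with the largest change and separate groups and the 2 uncalled genes with the highest level are named; all 6 genes, FOXO6, FOXO3B and the 2 nearest profiles per gene are also named, and some genes that this rule names are not reported here. FOXO1B and the genes under the split by role, INSR, IGF1R, IRS1 and AKT2 were named after their values were seen. The fit was repeated with a smaller pseudocount (0.1), without the filter, with a filter of 5 FPKM, with medians equalised, with the replicate number as a block, with quality weights, and without each library in turn.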

Additional observations from a re-analysis of the deposited data

How the results depend on the processing

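The 12 alternatives kept the direction of all 6 FOXO group genes. With a pseudocount of 0.1 the log2 differences were 0.81 for FOXO3, 2.60 for FOXO4, 1.73 for BCL6 and 2.73 for PIK3IP1, which puts PIK3IP1 above FOXO4 and BCL6, since a smaller pseudocount shrinks weak genes less; PIK3IP1 was not tested at the filter of 5 FPKM. With 1 library left out, FOXO4 ran from 2.33 to 2.50, BCL6 from 1.56 to 1.66, PIK3IP1 from 1.19 to 1.29, FOXO3 from 0.70 to 0.78, FOXO1 from 0.50 to 0.58 and IRS2 from 0.28 to 0.34, and the FOXO4 share from 26.4% to 29.3% in controls and from 58.6% to 59.4% after knockdown. Over all alternatives 28 to 34 other FOXO-induced genes rose and 10 to 11 fell. Other forkhead genes had 2 rises without the filter, which tests more genes. Of the genes that did not pass, MXI1 (-0.01) turned to 0.01 under median scaling and to 0.00 with quality weights and ran from -0.06 to 0.04 with a library left out, USP7 from -0.01 to 0.03, and IRS1 from -0.04 to 0.09, below 0 without control 2 and without knockdown 1; PTPN1 passed under median scaling, the block, quality weights and without knockdown 3, and STUB1 under the block and without control 2. The causes were not tested, and no other gene given with its own values from the 6 pathway lists turned or crossed the threshold wherever it was refitted. The numbers in the titles do not show a pairing: deviations of equally numbered libraries from their group means correlated at -0.027, -0.067 and 0.024, and 0 of 3 controls correlated best with their own number. The replicate block called 4971 genes higher and 4773 lower, against 4937 and 4730 without it. Depth in fragments is unknown, so no limit can be given for genes listed at 0.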
